A study of Bos taurus with 13 samples.

Results

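The genes described here store iron, carry it into and out of cells, or break down haem: *FTH1*, *FTL*, *TFRC*, *SLC40A1*, *SLC11A1*, *SLC11A2*, *HMOX1*, *IREB2* and *BLVRB*. They were chosen by name, and counts of 7 of these 9 genes were analysed, out of 16095 named genes, while *FTL* (the ferritin light chain) and *SLC11A2* (a divalent metal transporter) were not analysed here. The samples were whole blood of lactating cows of one herd, labelled as Italian Red Pied, and gene counts of 13 cows were used. Of these, 7 came from the group with high milk cortisol (replicates 1 to 7) and 6 from the group with low milk cortisol (replicates 8 to 13), and the labels name no treatment. Cortisol in milk is a marker of the activity of the adrenal axis, and cows of both groups were clinically healthy, so high and low stand for the tails of one herd and not for an imposed stress.

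Cells take up iron that is bound to transferrin through the transferrin receptor, keep what they do not use inside ferritin, and release it through ferroportin. Most iron of the body is in haemoglobin, and macrophages recover it from old red cells by opening the haem ring with haem oxygenase, which yields iron, carbon monoxide and biliverdin, and biliverdin is then reduced to bilirubin. Iron regulatory proteins bind the messengers of ferritin and of the transferrin receptor when iron is scarce, so that ferritin is translated less and the receptor messenger is protected. Glucocorticoids are known to act on blood leukocytes, and the question was whether these genes differed in blood between both tails of milk cortisol.

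Named genes held 11045599 to 28124575 reads per cow. In these bulk samples, fewer cells of a type and less RNA per cell cannot be told apart. No tested marker of neutrophils, monocytes, T cells, B cells or platelets stayed under 1 CPM in all cows, where CPM is the count scaled to a common library size. The haemoglobin genes *HBB*, *HBG*, *HBM* and *HBQ1* were summed. They held between 0.0282% and 0.815% of the counts in the high group and between 0.0114% and 0.0552% in the low group. Other haemoglobin genes and reads without a gene name were not in this share, which is also the haemoglobin covariate used below. One library stood apart over all genes. Replicate 4 of the high group had the highest or the lowest value of the 13 cows in 51.9% of the 11033 genes tested, against 5.52% to 23.9% in the other cows, and its median correlation with the other cows over all genes was 0.948, against 0.973 to 0.977. Results that rest on this cow are therefore given with and without it.

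*FTH1* was the most abundant of the 7 genes and *TFRC* the least abundant. *FTH1* encodes the heavy chain of ferritin, the subunit that oxidises iron on its way into the store, and lies on chromosome 29 of the UMD3.1 build from 41172509 to 41175112. It took between 0.218% and 0.337% of all reads on named genes, and its level was 3210 CPM per kilobase of exon ± 451 (SD, n = 13). Only 20 of the 11033 genes tested had a higher level per kilobase. The phagosome metal transporter *SLC11A1* followed with 130 CPM per kilobase ± 23.4 (SD, n = 13), and then the iron exporter *SLC40A1* with 111 CPM per kilobase ± 30.3 (SD, n = 13). The haem breakdown enzymes came next, *BLVRB* with 79.4 CPM per kilobase ± 14.8 (SD, n = 13) and *HMOX1* with 75.3 CPM per kilobase ± 17.4 (SD, n = 13). Both remaining genes were more than an order of magnitude below the transporters, *IREB2* with 6.86 CPM per kilobase ± 2.73 (SD, n = 13) and *TFRC* with 3.68 CPM per kilobase ± 0.982 (SD, n = 13).

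**Figure D1:**
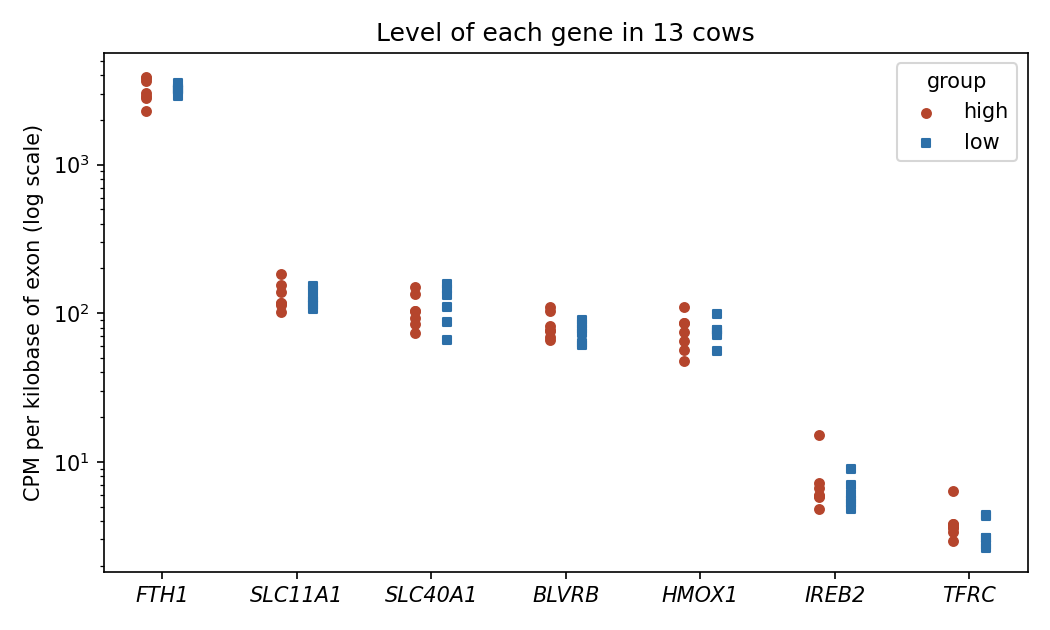
Level of each gene in CPM per kilobase of summed exon length (log scale), one point per cow, with circles for the high group and squares for the low group. *FTH1* lies at 2309 CPM per kilobase or above in every cow, 4 genes share the range from 47.3 to 185, and *IREB2* and *TFRC* lie at 15.2 or below.

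Neighbours in this order were compared within each cow by exact sign-flip permutation tests over 8192 sign patterns, two-sided and not adjusted over the 6 comparisons. The order was taken from the same values, so no p is a test of the order. Each p only sets the mean log2 step against its spread among the cows. The level of *FTH1* per kilobase was 24.8-fold that of *SLC11A1*, *HMOX1* was 11.3-fold above *IREB2* and *IREB2* was 1.82-fold above *TFRC*, each in 13 of 13 cows (exact p = 2.4e-04, the smallest that these patterns allow). *SLC11A1* exceeded *SLC40A1* by 0.27 ± 0.36 on the log2 scale (SD, n = 13), in 10 of 13 cows (exact p = 0.0195), and *SLC40A1* exceeded *BLVRB* by 0.45 ± 0.52 (SD, n = 13), in 9 of 13 cows (exact p = 0.0117). *BLVRB* and *HMOX1* did not differ beyond their spread, with a 1.06-fold difference and *BLVRB* above *HMOX1* in 9 of 13 cows (exact p = 0.340). Levels per kilobase depend on the exon lengths of the gene models, which were 861 bases for *FTH1* and 2328 bases for *TFRC*. Copies of *FTH1* elsewhere in mammalian genomes can share its reads, so its level is uncertain.

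No difference between the groups passed the test in any of the 7 genes. By edgeR's quasi-likelihood test, 0 of 7 passed an adjusted p of 0.05 (every adjusted p was 0.998), where 0% of all genes tested passed, and 0 of 7 had an unadjusted p below 0.05, where 2.09% of all genes did. DESeq2 and limma-voom also gave 0 of 7 at either threshold, but for them the share over all genes was not counted. The values of high and low cows overlapped for all 7 genes, as for all but 0.0272% of the genes tested. The log2 fold changes (high minus low) lay between -0.13 and 0.23, with 4 positive and 3 negative and a median of 0.06, beside a median of 0.01 over all genes tested. The smallest exact p of the 7 genes, from two-sided permutation tests of log2 CPM over the 1716 splits of 7 against 6 cows, was 0.284, where 5.8e-04 was the smallest possible.

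**Figure D2:**
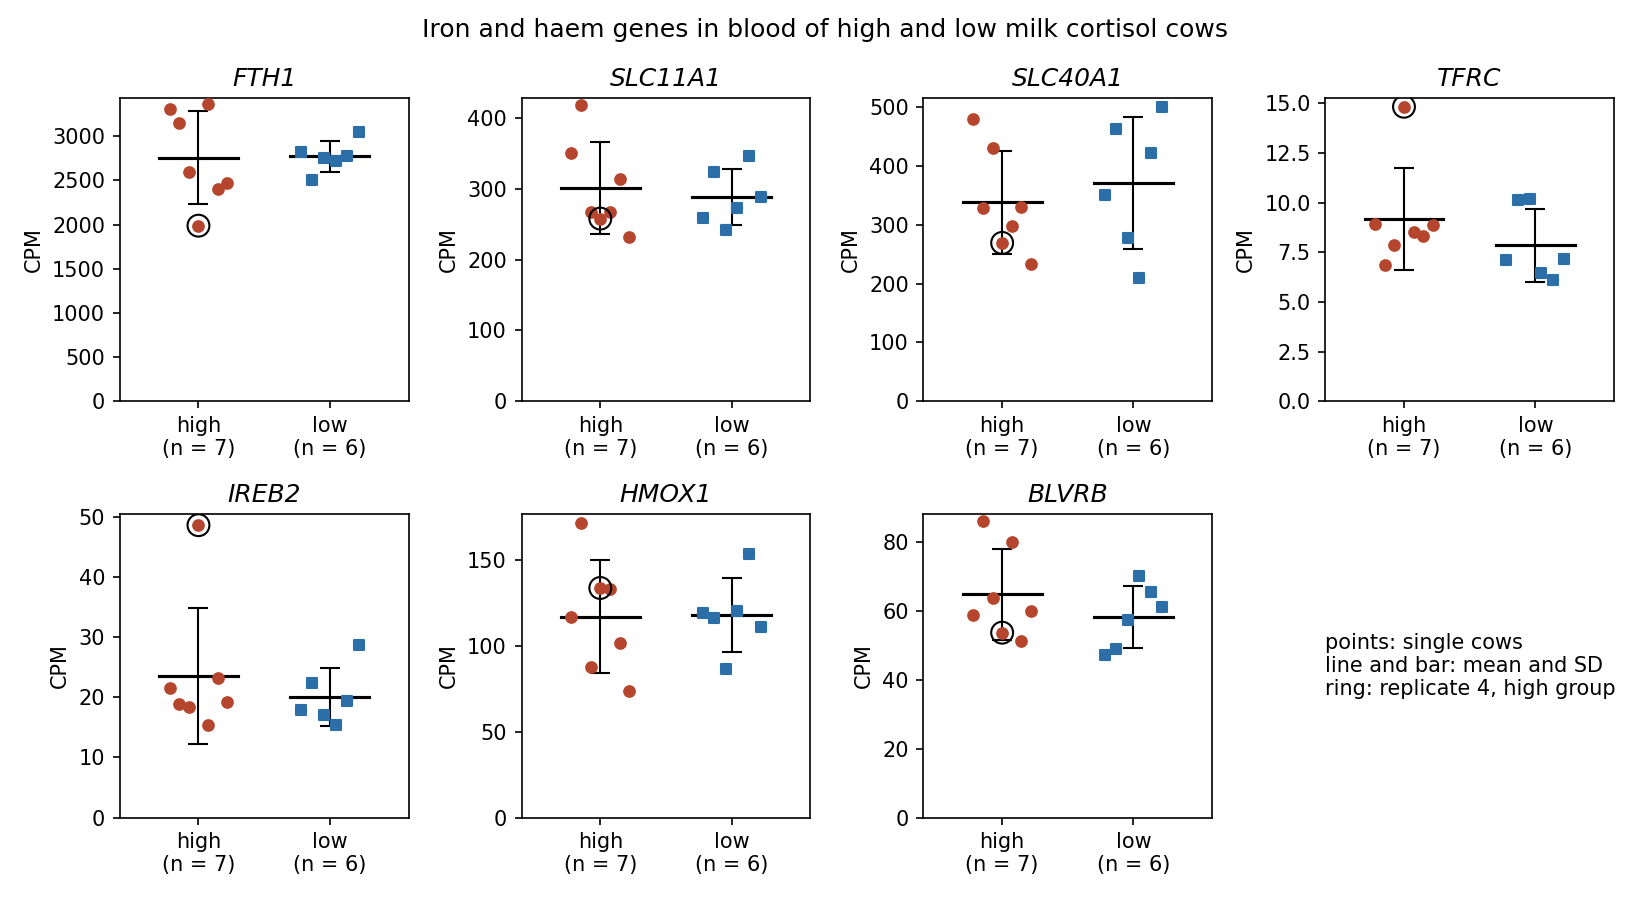
CPM of the 7 genes in single cows (circles for the high group, squares for the low group, linear axes from 0), with the mean and SD of each group. The groups overlap for every gene, and the ringed replicate 4 of the high group is the highest cow for *TFRC* and *IREB2* and the lowest for *FTH1*.

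Of the store, *FTH1* had 1988 to 3364 CPM in the high group (median 2595) and 2509 to 3051 CPM in the low group (median 2764). The low cows lay close together, with a coefficient of variation of 6.30%, and the high cows were spread on both sides of them, with 19.0%. Replicates 5, 1 and 2 of the high group were above every low cow, while replicates 4, 6 and 7 were below every one of them. The means were 2757 CPM ± 525 (SD, n = 7) and 2772 CPM ± 175 (SD, n = 6), and edgeR gave a log2 fold change of -0.01 with a 95% confidence interval from -0.27 to 0.26. Its sign turned without replicate 4 of the high group (0.06) and in 5 more of the 13 fits that left out 1 cow.

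*TFRC*, the transferrin receptor by which cells take up iron, lies on chromosome 1 from 71260068 to 71280648 and is known to be abundant in dividing cells and red cell precursors. It had 6.84 to 14.8 CPM in the high group (median 8.52) and 6.09 to 10.2 CPM in the low group (median 7.12), from 95 to 276 reads per cow. Its 6 lowest high cows lay between 6.84 and 8.91 CPM, inside the range of the low group, and replicate 4 lay above all other cows. The log2 fold change was 0.23 (edgeR, SE 0.20, adjusted p = 0.998, exact permutation p = 0.284), and leaving out replicate 4 gave 0.07. At these counts the counting error of one cow is about 8.49%, the largest of the 7 genes.

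*IREB2*, which encodes iron regulatory protein 2, lies on chromosome 21 from 31352398 to 31401775. It had 15.3 to 48.6 CPM in the high group (median 19.2) and 15.3 to 28.6 CPM in the low group (median 18.6). Again replicate 4 was the highest cow, and the other high cows lay at 23.2 CPM or below. The log2 fold change was 0.23 (edgeR, SE 0.24, adjusted p = 0.998, exact permutation p = 0.607) and turned to -0.05 without replicate 4.

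*SLC40A1* encodes ferroportin, the exporter through which iron leaves cells, and lies on chromosome 2 from 6716591 to 6740329. It had 234 to 479 CPM in the high group (median 328) and 210 to 501 CPM in the low group (median 386), so both groups covered nearly the same span. Replicate 13 was the lowest and replicate 9 the highest cow of all, both of the low group. The log2 fold change, -0.13 (edgeR, SE 0.20, adjusted p = 0.998, exact permutation p = 0.642), ran from -0.25 without replicate 13 to -0.026 without replicate 9.

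*SLC11A1*, known as NRAMP1, moves metal ions out of the phagosome of macrophages and neutrophils and lies on the same chromosome from 107114929 to 107125867. It had 232 to 418 CPM in the high group (median 267) and 242 to 347 CPM in the low group (median 281). The mean was 301 CPM ± 65.2 (SD, n = 7) against 289 CPM ± 39.6 (SD, n = 6), with a 95% confidence interval of the fold from 0.851 to 1.28, and the log2 fold change of 0.06 turned to -0.03 without replicate 2 of the high group. Replicates 2 and 1 of the high group were the highest of all cows, while replicate 7 of the same group was the lowest.

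Of haem breakdown, *HMOX1* encodes the inducible haem oxygenase and lies on chromosome 5 from 73980776 to 73987841. It had 73.8 to 172 CPM in the high group (median 117) and 86.5 to 154 CPM in the low group (median 118). The lowest and the highest cow were both of the high group, replicates 7 and 2, and the means were 117 CPM ± 33.0 (SD, n = 7) and 118 CPM ± 21.5 (SD, n = 6). The fold was 0.992 with a 95% confidence interval from 0.768 to 1.28. A fit that adjusts for the haemoglobin share of each library gave a log2 fold change of 0.28, again with 0 of the 7 genes called, and leaving out 1 cow gave -0.13 (replicate 2 of the high group) to 0.08 (replicate 8 of the low group).

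*BLVRB* encodes biliverdin reductase B, an enzyme known to be abundant in red cells that also reduces flavins, and lies on chromosome 18 from 50056571 to 50073609. It had 51.2 to 86.1 CPM in the high group (median 60.0) and 47.3 to 70.1 CPM in the low group (median 59.2). Only replicates 2 and 5 of the high group, with 86.1 and 80.0 CPM, lay above every low cow, and the log2 fold change was 0.15 (edgeR, SE 0.14, adjusted p = 0.998, exact permutation p = 0.340). It was 0.075 without replicate 2 and 0.094 without replicate 5. Erythroid markers had a row for 11 of 12 genes, and their summed level was 300 to 7571 CPM in the high group and 139 to 558 CPM in the low group, with *AHSP* and *RHAG* among those under 1 CPM in every cow. The erythroid score, over the 6 of these markers with enough reads to be tested, was 0.82 higher on the log2 scale in the high group (two-sided exact permutation test, p = 0.0286, and 0.200 adjusted over 7 marker lists). Over the 13 cows *BLVRB* had r = 0.25 with the erythroid score (permutation p = 0.414, adjusted p 0.783, rho = 0.23 with p = 0.446), with 0.19 within the high group, -0.26 within the low group and 0.07 without replicates 2 and 5 of the high group, the cows farthest from its median. The part of erythroid RNA in the values of *BLVRB* was not tested.

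**Figure D3:**
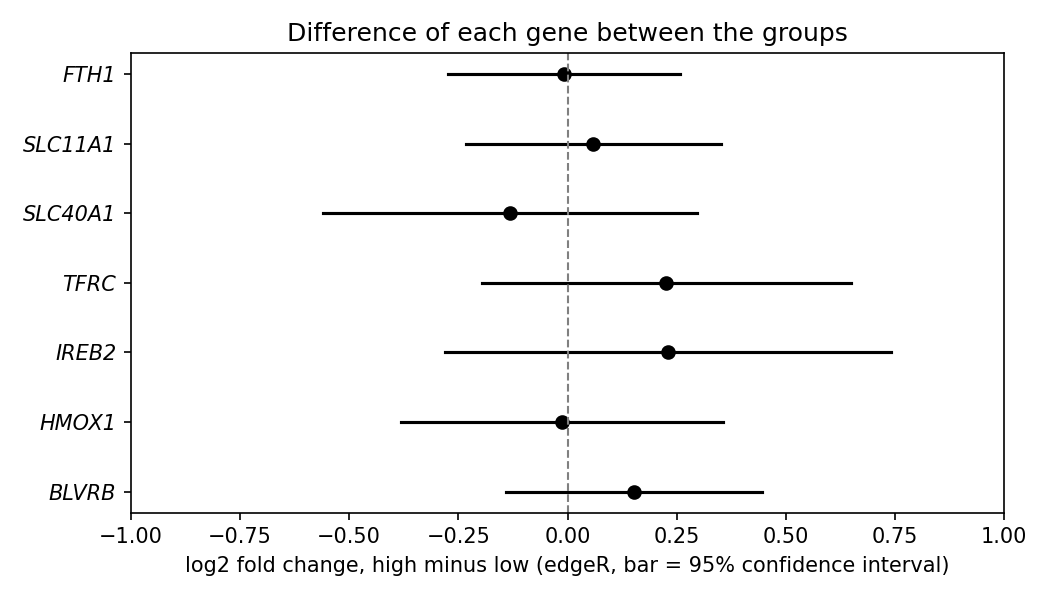
Log2 fold change (high minus low) of each gene from edgeR, with its 95% confidence interval as a bar. Every interval holds 0, the narrowest is that of *FTH1* and the widest that of *IREB2*.

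The number of *FTH1* reads per *TFRC* read, a ratio of storage to uptake within a cow, ran from 134 to 461 in the high group (median 329) and from 248 to 456 in the low group (median 410). Replicate 4 of the high group had the lowest ratio of all cows. The log2 ratio of *TFRC* to *FTH1* was 0.24 higher in the high group, which did not differ beyond the spread (two-sided exact permutation test over 1716 splits, p = 0.437). Leaving out replicate 4 gave a difference of 0.047 (exact permutation p = 0.812).

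The genes varied among cows to different degrees. The SD of log2 CPM over the 13 cows was 0.44 for *IREB2*, 0.41 for *SLC40A1*, 0.34 for both *TFRC* and *HMOX1*, 0.26 for *BLVRB*, 0.25 for *SLC11A1* and 0.21 for *FTH1*, beside a median of 0.31 over all genes tested. Of all genes tested, 71.7% had a smaller SD than *IREB2* and 23.1% a smaller one than *FTH1*. Without replicate 4 of the high group the SD fell to 0.26 for *IREB2*, 0.24 for *TFRC* and 0.16 for *FTH1*, beside a median of 0.27 over all genes, so *IREB2* went from above the median to below it, while that of *SLC40A1* stayed at 0.41 and became the largest of the 7. The highest and lowest cows of this iron exporter differed 2.38-fold.

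In replicate 4 of the high group, *IREB2* was 2.54-fold and *TFRC* 1.82-fold the median of the other 12 cows, and *FTH1* was 0.719-fold. *HMOX1* took the third place from the highest there, and *BLVRB*, *SLC11A1* and *SLC40A1* the places 10, 11 and 11 of 13. The marker scores of this cow were within the range of the other cows for neutrophils, T cells, B cells, platelets, erythroid cells and proliferation, and its monocyte score was the highest of the 13 with 0.49 against 0.36 in the next cow. Since this library was extreme in 51.9% of all genes, extreme values there are not particular to these 3 iron genes.

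Co-variation over the 13 cows was measured for 21 pairs of genes and for the 49 relations of a gene with a marker list score. Of the 70 relations, 0 passed an adjusted p of 0.05 (Pearson's r, permutation tests with 100000 resamples, Benjamini-Hochberg over all 70), while 5 pairs and 2 list relations had an unadjusted p under 0.05. Of the 21 pairs, 12 had a positive and 9 a negative r, from -0.60 to 0.69. *TFRC* had r = 0.15 with the erythroid score (permutation p = 0.629, adjusted p 0.829). With the proliferation score its r was 0.03 (permutation p = 0.918, adjusted p 0.974). Pairs share the depth and the scaling of a library, and the relations are given as descriptions.

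The pair with the highest r was *SLC11A1* and *HMOX1*, both known from macrophages (r = 0.69, permutation p = 0.00924 and adjusted p 0.323, and Spearman's rho = 0.51, permutation p = 0.0813, n = 13). It was 0.67 within the high group and 0.79 within the low group, 0.58 without the cows farthest from the median of *SLC11A1* (permutation p = 0.0605), and 0.76 without replicate 4. Leaving out replicate 2 of the high group alone gave 0.54. Both genes also went with the monocyte score, *HMOX1* with r = 0.69 (permutation p = 0.00871, adjusted p 0.323, rho = 0.53 with p = 0.0649) and *SLC11A1* with r = 0.54 (permutation p = 0.0588, adjusted p 0.432, rho = 0.49 with p = 0.0935). Without replicate 4, r with this score was 0.70 for *HMOX1* and 0.77 for *SLC11A1* (permutation p = 0.0107 and 0.00356, not adjusted). The monocyte score was not particular to this pair. *IREB2* had r = 0.56 with it (permutation p = 0.0617, adjusted p 0.432, rho = 0.60 with p = 0.0340), and 0.29 without replicate 4. *SLC40A1* had r = 0.38 with the monocyte score (permutation p = 0.207), and 0.61 without replicate 4 (p = 0.0317, not adjusted). *SLC11A1* had r = 0.41 with this score without replicates 1 and 2, the cows farthest from its median (permutation p = 0.213). Without the cows farthest from its median, replicates 2 and 7 of the high group, *HMOX1* had r = 0.35 with the monocyte score (permutation p = 0.293), while r was 0.77 within the high group and 0.63 within the low group, which holds neither cow, and at least 0.51 with any 1 cow left out. *SLC11A1* had r = -0.56 with the B cell score (permutation p = 0.0465, adjusted p 0.432, rho = -0.54 with p = 0.0613), and -0.64 without the cows farthest from its median, replicates 1 and 2 of the high group. *IREB2* had r = -0.54 with the B cell score (permutation p = 0.0549, adjusted p 0.432, rho = -0.64 with p = 0.0198). Monocyte markers had a row for 9 of 10 genes, none of them under 1 CPM in all cows, and their summed level was 806 to 1508 CPM in the high group and 1126 to 1541 CPM in the low group. Of the 9 tested, 1 had an unadjusted p below 0.05 (edgeR), and it was lower in the high group (background 1.16%). The monocyte score was 0.13 higher in the high group (exact permutation p = 0.438). The part of monocyte number in the values of both genes was not tested.

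The pairs among *IREB2*, *TFRC* and *FTH1* rested on one cow. *IREB2* and *TFRC* had r = 0.64 (permutation p = 0.0336, adjusted p 0.432, rho = 0.29 with p = 0.343, n = 13), but 0.08 once replicate 4 was left out, and also once replicates 4 and 8, the cows farthest from the median of *TFRC*, were left out. *IREB2* and *FTH1* had r = -0.60 (permutation p = 0.0371, adjusted p 0.432, rho = -0.42 with p = 0.156), and -0.11 without it. *TFRC* and *FTH1* had r = -0.58 (permutation p = 0.0388, adjusted p 0.432, rho = -0.34 with p = 0.253), and -0.18 without it. Within the low group, which does not hold this cow, the r of these 3 pairs was 0.08, 0.39 and -0.50 in the same order, so the second changed sign. *FTH1* and *BLVRB* had r = 0.55 (permutation p = 0.0496, adjusted p 0.432, rho = 0.48 with p = 0.0966), which was 0.71 within the high group, 0.30 within the low group and 0.57 without replicate 4. Without the cows farthest from the median of *FTH1*, replicates 4 and 5 of the high group, the 3 pairs that include *FTH1* had r = 0.12 with *IREB2* (permutation p = 0.720), -0.29 with *TFRC* (p = 0.380) and 0.44 with *BLVRB* (p = 0.179). *SLC40A1* and *IREB2* had r = 0.16 over the 13 cows and 0.69 without replicate 4 (permutation p = 0.0132, not adjusted), but -0.14 without replicates 9 and 13 of the low group, the cows farthest from the median of *SLC40A1*.

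**Figure D4:**
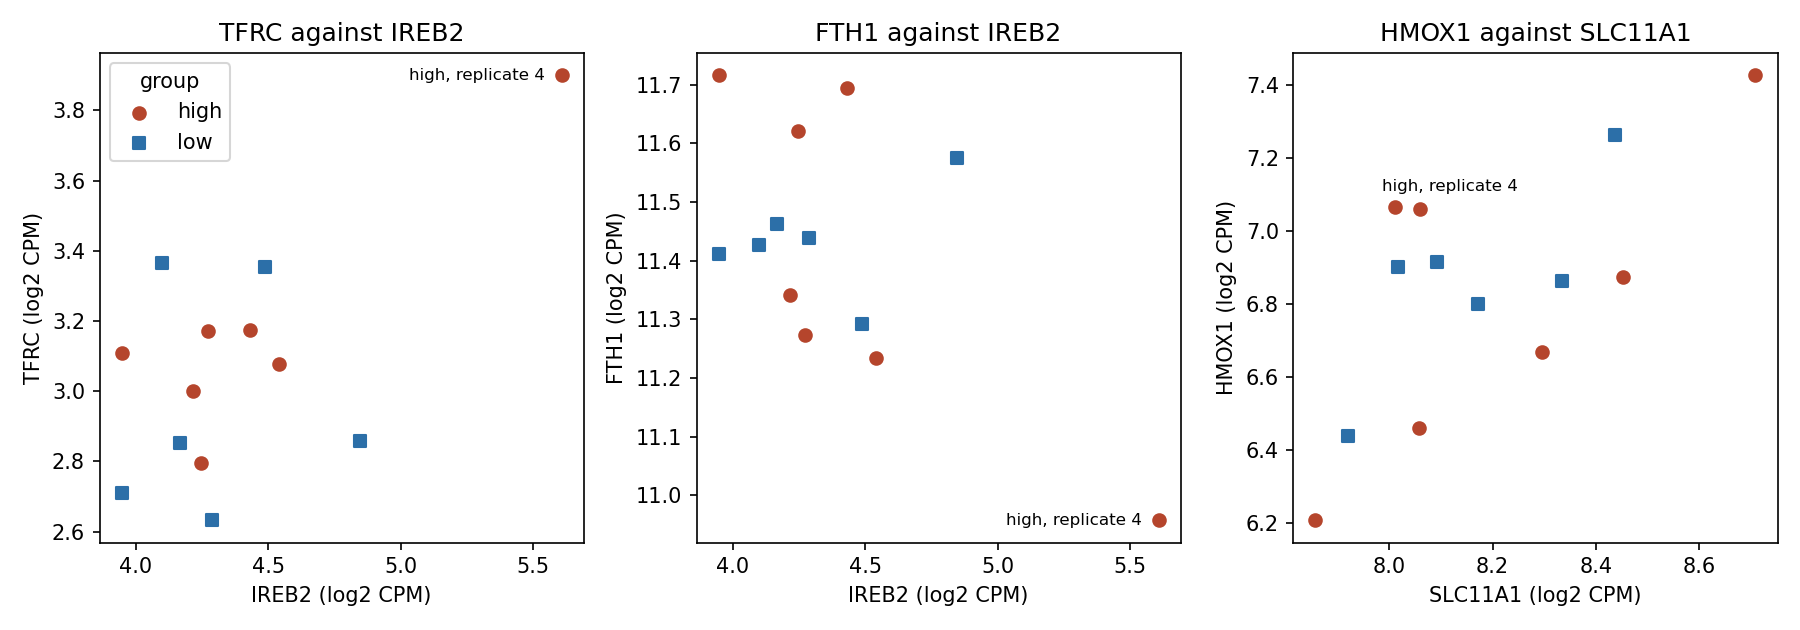
Log2 CPM of pairs of genes in the 13 cows (circles for the high group, squares for the low group). One cow, replicate 4 of the high group, lies alone in the first 2 plots. There r is 0.64 and -0.60 with it, and 0.08 and -0.11 without it. For *HMOX1* and *SLC11A1* r is 0.69, and 0.54 without replicate 2 of the high group. No pair passed adjustment.

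For each gene, the 3 genes with the highest Pearson r of log2 CPM over the 13 cows were sought among the other 11032 genes tested. For *HMOX1* these were *IL10RA* (r = 0.93), the receptor of interleukin 10, *PEPD* (0.89), a dipeptidase, and *TNFRSF1B* (0.88), a receptor of tumour necrosis factor, and each r was at least 0.873 without replicate 4. For *SLC40A1* they were *ILDR1* (0.82), *ZNF143* (0.82) and *SRXN1* (0.82), the last of which repairs oxidised peroxiredoxins. For *SLC11A1* they were *NAPRT* (0.90), an enzyme of NAD synthesis, *KHK* (0.88), which phosphorylates fructose, and *EPHX3* (0.84). *BLVRB* was closest to *LENG9* (0.87), *FAAP100* (0.85) and *HN1* (0.85). *FTH1* was closest to *C9orf69* (0.92), *CBR3* (0.92) and *GCHFR* (0.91), and *TFRC* to *SRP14* (0.93), *SRSF7* (0.93) and *CCSMST1* (0.92). Without replicate 4, r in the same order was 0.88, 0.86 and 0.86 for *FTH1* and 0.86, 0.85 and 0.82 for *TFRC*. Within the high group the r of *FTH1* was 0.95, 0.97 and 0.94, and within the low group 0.62, 0.10 and 0.55. For *TFRC* it was 0.95, 0.96 and 0.97 within the high group and 0.89, 0.87 and 0.82 within the low group. *IREB2* had the closest genes of all with *BCLAF1* (0.98), *PAFAH1B2* (0.98) and *HEATR5A* (0.97). Their r was 0.95, 0.94 and 0.90 without replicate 4. The genes named have the highest of 11032 values for each gene over the 13 cows, so they are descriptions without a test.

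How many genes resembled a member also differed. For *IREB2*, 1054 of 11032 genes (9.55%) had an r above 0.8, against 1.46% for *TFRC*, 1.01% for *FTH1* and 0.0544% to 0.227% for the other 4 genes. Without replicate 4 of the high group the share was 3.78% for *IREB2*, still the highest of the 7, and 0.145% to 0.906% for the others.

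The other genes of iron and haem metabolism were read from 5 lists of 59 genes in all, of which 52 had a row and 45 had enough reads to be tested. With edgeR, 0 of 45 passed an adjusted p of 0.05, 1 had an unadjusted p below 0.05 and was higher in the high group (background 0.934%), and 1 had it and was lower (background 1.16%). Of the 45 genes, 22 had a positive and 23 a negative log2 fold change, with a median of -0.01 beside 0.01 over all genes tested. The number of genes at an unadjusted p below 0.05 rose from 2 to 4 without replicate 2, 4 or 5 of the high group and to 5 without replicate 11 of the low group, with 0 past adjustment in each, and limma-voom gave 1 and DESeq2 3. For these other fits the share over all genes was not counted.

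**Figure D5:**
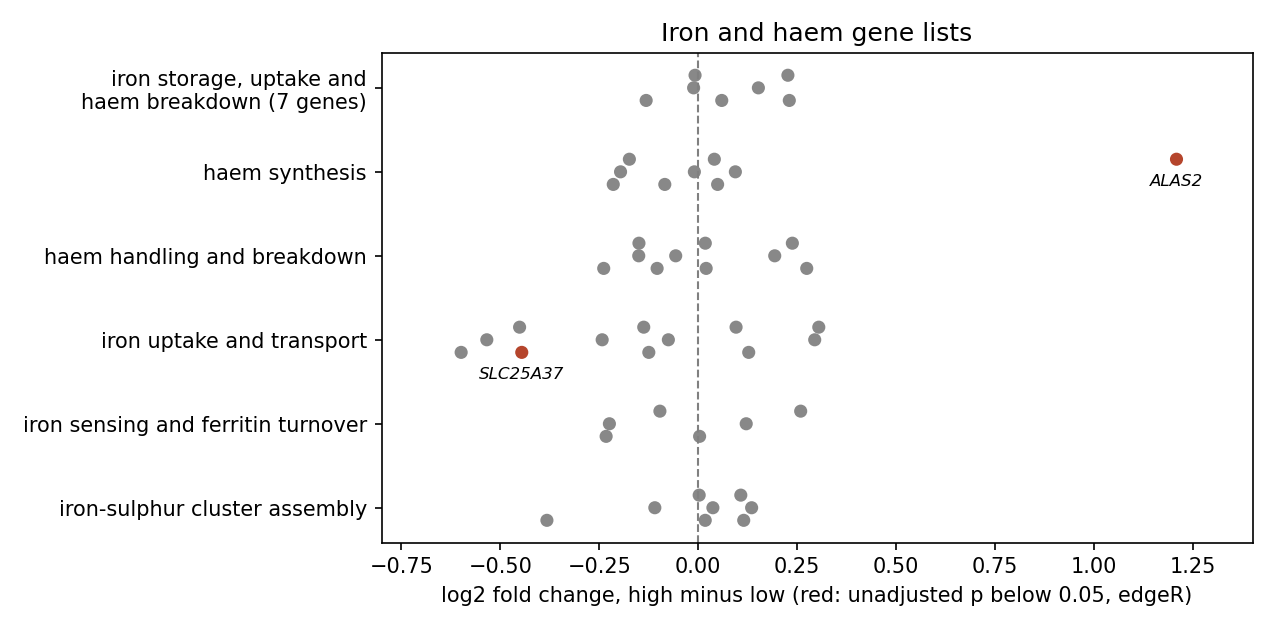
Log2 fold change (high minus low, edgeR) of the 7 genes and of 45 other iron and haem genes by list, one point per gene. *ALAS2* (1.21) and *SLC25A37* (-0.45), in red, are the genes with an unadjusted p below 0.05, and neither passed adjustment.

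Of haem synthesis, 9 of 9 genes were tested, 4 with a positive and 5 with a negative log2 fold change. *ALAS2*, the first enzyme of haem synthesis in red cell precursors, had 29.5 to 301 CPM in the high group (median 83.6) and 19.9 to 65.4 CPM in the low group (median 51.6). Its 5 highest cows were all of the high group, and the 2 lowest high cows, replicates 4 and 2, lay below the low median. The log2 fold change was 1.21 (edgeR, SE 0.46, p = 0.0188, adjusted p = 0.998, and exact permutation p = 0.105). It was 0.71 without replicate 7 of the high group, 0.59 with the difference of the neutrophil and T cell scores as a covariate, and 0.32 when the haemoglobin share was the covariate. *ALAS1*, the form of the enzyme that other cells use, had 53.2 to 79.6 CPM in the high group and 64.9 to 92.0 CPM in the low group (log2 fold change -0.21, edgeR adjusted p = 0.998, exact permutation p = 0.0659).

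Of iron uptake and transport, 12 of 17 genes were tested, with 4 positive and 8 negative log2 fold changes. *SLC25A37*, or mitoferrin 1, carries iron into mitochondria. It had 28.4 to 41.2 CPM in the high group (median 38.2) and 40.3 to 60.7 CPM in the low group (median 49.2). Every high cow lay below the low median, and the groups overlapped only by replicate 7 of the high group with 41.2 CPM and replicate 12 of the low group with 40.3 CPM. The log2 fold change was -0.45 (edgeR, SE 0.12, p = 0.00210, adjusted p = 0.998), with an unadjusted p = 0.00117 in the exact permutation test. The gene was named for its small p in these same cows, so the exact p is no separate support. Its log2 fold change lay between -0.50 and -0.37 with any 1 cow left out. Under the other alternatives it lay between -0.46 and -0.44, and none of them called the gene. *SLC39A8*, a metal importer with 29 to 67 reads per cow, had a log2 fold change of -0.60 (unadjusted p 0.0512, edgeR, adjusted p 0.998). *PCBP2*, which hands iron to ferritin and is the most abundant gene of the list per kilobase, had a log2 fold change of -0.08 (unadjusted p 0.494).

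Of haem handling and breakdown, 10 of 13 genes were tested, 5 in each direction. *HMOX2*, the constitutive haem oxygenase, had 46.1 to 77.5 CPM in the high group and 58.1 to 96.8 CPM in the low group (log2 fold change -0.24, edgeR adjusted p = 0.998, exact permutation p = 0.114). Its log2 fold change was -0.17 without replicate 4 of the high group. *NFE2L2*, a transcription factor known to drive *HMOX1* and ferritin genes, had a log2 fold change of -0.15 (unadjusted p 0.265). It had 99.8 to 155 CPM in the high group (median 138) and 113 to 185 CPM in the low group (median 157). Of iron sensing and ferritin turnover, 6 of 10 genes were tested, 3 in each direction, with -0.23 for *FBXL5*, the iron sensor that marks iron regulatory proteins for breakdown (unadjusted p 0.142), and 0.26 for *HFE* (unadjusted p 0.309). Of iron-sulphur cluster assembly, 8 of 10 genes were tested, 6 with a positive and 2 with a negative value, and *ISCU*, the scaffold on which clusters form, had 84.7 CPM ± 4.27 (SD, n = 7) and 82.5 CPM ± 6.22 (SD, n = 6). *BOLA3* had -0.38 and *IBA57* 0.11 (unadjusted p 0.143 and 0.436, edgeR, 0 adjusted).

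The 7 genes with a row that were below the filter include those that other organs are known to make. *TF*, which encodes transferrin, and *FTMT*, the mitochondrial ferritin, had 0 reads in all 13 cows, which allows up to 0.107 to 0.272 CPM per cow (3 counts, counting error only). *HAMP*, which encodes hepcidin, the liver hormone that closes ferroportin, had at most 2 reads in any cow, as did *HPX* and *HFE2*. *HEPH* had 2 to 10 reads and *BMP6* 1 to 20 reads per cow. These genes were not tested between the groups.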

How the data were processed

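Blood RNA of 13 cows was compared as 7 high against 6 low, by the sample labels alone: the header of each count table gives another animal number than the name of the table. The authors deposited counts, that is whole numbers of reads per gene name without normalization. Per the file headers they were made with featureCounts 1.4.6-p3 on Ensembl 88 gene models of UMD3.1, exons summed by gene name, with no option for strand or for reads that map to several places and the alignment path they give names goat, although the labels give cattle. The submitters' processing notes name STAR 2.7.3, Subread 1.6.5 and ARS-UCD1.2 instead. Positions are on UMD3.1. The unnamed entry, 13.9% to 16.7% of counts, was left out.

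High and low were compared with edgeR 4.0.16 in R 4.3.3 (TMM factors, filterByExpr with minimum count 10 and minimum total 15, robust quasi-likelihood fit, no covariates, Benjamini-Hochberg over 11033 genes). Each SE is the size of the log2 fold change over the root of its F statistic, and intervals use the degrees of freedom of that test. Log2 CPM had a prior count of 2, and levels per kilobase use exon lengths of the count tables. A marker score averages, over a list, each gene's log2 CPM minus its mean over cows. Alternatives were DESeq2 1.42.0, limma-voom (limma 3.58.1), RLE factors, 2 other filters, a fit that is not robust, haemoglobin genes left out, 2 covariates, a prior count of 0.5 and each cow left out. Co-variation and spread without replicate 4 of the high group were added after seeing the data. Tests were tried on simulated data. A planned ratio of *FTH1* to *FTL* was not computed, since *FTL* was not analysed here. All libraries differed in their counts.

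The genes and lists were chosen with earlier results of these data known. Named are the 7 genes, of each list the 2 genes with the smallest p and the most abundant per kilobase, and the 3 genes most like each of the 7. Genes below the filter and those under 1 CPM were named after their values were seen. One marker gene is not reported here. Marker lists were erythroid, neutrophil, monocyte, T cell, B cell, platelet and proliferation. The score differences (high minus low) of the last 6 were -0.25, 0.13, -0.04, 0.14, -0.20 and -0.33 on the log2 scale (exact permutation p from 0.179 to 0.628).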

Additional observations from a re-analysis of the deposited data

Results flagged for a closer look

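Dixon's test compared the extreme cows of each group with their neighbours for 15 measures, in 60 comparisons, and 3 exceeded its 95% limit, which chance passes in about 1 of 20 groups. All 3 were values of replicate 4 of the high group. *TFRC* had 14.8 CPM in this cow against 8.91 CPM in the next cow of the group, *IREB2* had 48.6 CPM against 23.2 CPM, and the log2 ratio of *TFRC* to *FTH1* was -7.06 against -8.10. This library was the highest or the lowest of the 13 cows in 51.9% of the genes tested.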

How the results depend on the processing

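No paired analysis was made, because the groups hold different cows and the labels give no pairs. All alternatives called 0 of the 7 genes and 0 of the 45 pathway genes at an adjusted p of 0.05, and the cause of the changes below was not tested. With haemoglobin as a covariate the log2 fold change became 0.084 for *FTH1* and 0.28 for *HMOX1*, and moved by over 1.5 times without a change of sign for *TFRC* (0.13), *SLC40A1* (-0.055), *SLC11A1* (0.28), *BLVRB* (0.25), *ALAS1* (-0.036), *ALAS2* (0.32), *NFE2L2* (-0.060), *PCBP2* (-0.0030), *FBXL5* (-0.046), *HFE* (0.47), *ISCU* (0.059) and *IBA57* (0.21). With the neutrophil and T cell covariate it was 0.048 for *HMOX1*, 0.099 for *SLC11A1*, -0.017 for *FTH1*, 0.59 for *ALAS2* and -0.092 for *NFE2L2*. By limma-voom it was 0.14 for *IREB2*, -0.032 for *FTH1* and -0.044 for *HMOX1*. With 1 cow left out it ran from -0.062 to 0.057 for *FTH1*, -0.032 to 0.12 for *SLC11A1*, -0.13 to 0.082 for *HMOX1* and -0.051 to 0.36 for *IREB2*, and the differences of mean log2 CPM from -0.081 to 0.046, -0.040 to 0.10, -0.14 to 0.062 and -0.030 to 0.27 in the same order. Pathway genes at an unadjusted p below 0.05 numbered 1 by limma-voom and 2 to 5 with 1 cow left out, and the share over all genes was not counted for these fits. Score differences then ran from 0.63 to 1.00 for erythroid cells (past 0.05 in 3 fits), 0.063 to 0.25 for monocytes (below 0.05 in 1 fit), -0.083 to 0.0072 for T cells and -0.39 to 0.015 for platelets. Pairs at an unadjusted p below 0.05 numbered 1 within the high group, 2 within the low group, 0 without the 2 farthest cows and 3 without replicate 4 of the high group, and list relations 1 without the 2 farthest cows and 4 without replicate 4. Without replicate 4 the SD of log2 CPM was 0.16 for *FTH1*, 0.24 for *TFRC* and 0.26 for *IREB2*. Depth limits *TFRC* most, by a counting error of 8.49% per cow.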
